A study of Mus musculus with 24 samples.

Results

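The genes described here are the 7 mouse genes that write, copy or remove methyl groups on cytosines of DNA: Dnmt1 and Uhrf1, which maintain methylation, Dnmt3a and Dnmt3b, which lay it down de novo, and Tet1, Tet2 and Tet3, which start its removal. They were chosen by name, with earlier results of these data already known. Their rows are those that hold one of these symbols in the count table of unique molecular identifiers (UMIs, tags that mark single captured transcripts). Each of the 7 matched 1 row of its own, out of 27297 gene entries. The values are RNA levels in single haematopoietic stem cells (HSCs), so they say how much transcript of each enzyme was counted and not how methylated the DNA was.

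The cells were HSCs of the reporter strain -60/DR5-TA-RA-CFP, which carries cyan fluorescent protein (CFP), and the labels define them as LSK (lineage-negative, Sca-1-positive, Kit-positive), CD150+ and CD48-, with mixed CFP status. All cells share this strain and gate, and no treatment or mouse age is given in the sources used here. The series' title concerns cell-cycle status and transcriptional heterogeneity among HSCs, and the comparisons below set the methylation genes against CFP brightness, S and G2/M gene expression and the numbered groups of the index-sort record. The labels list 8 single-cell batches, whereas the record names 4 sort plates (2, 3, 4 and 5) of one pooled table, and nothing ties a plate to a mouse. Bulk RNA and bisulphite libraries are not analysed here.

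Dnmt1 copies the methylation of the parental DNA strand onto the newly made strand after replication, and Uhrf1 recognises the half-methylated sites and brings Dnmt1 to them. Dnmt3a and Dnmt3b methylate sites without such a template, and the Tet enzymes oxidise methylcytosine as the opening step of demethylation. In blood, loss of Dnmt3a or Tet2 in HSCs is known for enhanced self-renewal and for clonal expansion.

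Promoter sequence is shown for the maintenance pair because the RNA of both genes was higher in bright than in dim cells. In the RefSeq promoter table (GRCm38.p6), all 7 genes were matched, with 12 windows of 250 bases before a listed start. The windows were searched on both strands for the E2F-type motifs TTTCCCGC, TTTCGCGC, TTTGCCGC and TTTGGCGC, the letters bound by the E2F factors that switch on S phase genes. Of all 32851 promoters in the table, 611 (1.86%) held a match, and 2 of the 12 windows did, 1 of the 3 for Dnmt1 and 1 of the 2 for Uhrf1. Each motif holds a CpG (C followed by G). The matching windows of Dnmt1 and Uhrf1 held 26 and 30 CpG, against a median of 6 over the table. Their GC content was 68.4% and 69.6%, against a median of 52.4%, so the 1.86% is not a background matched for these. The stretches of 30 bases around both matches are printed 5′ to 3′ on the gene's own strand with the motif in capitals. The Dnmt1 stretch is chr9:20952824-20952853 on the minus strand. Its match reads as the reverse complement of the motif and begins 219 bases before the listed start. The Uhrf1 stretch is chr17:56304117-56304146 on the plus strand, and its match begins 185 bases before the start.
Dnmt1: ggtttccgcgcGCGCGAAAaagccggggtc
Uhrf1: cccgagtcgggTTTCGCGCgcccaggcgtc
No match was in the 7 windows of Dnmt3a, Dnmt3b, Tet1, Tet2 and Tet3, which says only that these letters are not in those windows. A match is a run of letters and not a measured binding site, and which start the cells used was not measured.

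The record held 1430 cells with 511 UMIs or more and a median of 1265 UMIs, spread evenly over the plates (345 to 368 cells and 483734 to 563679 UMIs per plate). All 11 HSC markers had UMIs. Of 7 B and T cell markers, 6 had none and Cd79b had 179. Of 4 endothelial markers, 3 had UMIs (152 in all) and Cdh5 had none. Neutrophil and monocyte, erythroid and megakaryocyte lists had 760, 2866 and 806 UMIs in all. Erythroid list levels ran from 354 to 4232 CPM (UMIs per 1000000 UMIs of the set) over the plates in dim cells and from 280 to 1620 CPM in bright cells, and the part of these markers in the results below was not tested. A further 106 wells had no sort record and at most 502 UMIs, and whether they were empty or held poor cells is not stated.

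Dnmt1 gave the most UMIs of the 7 genes, 847 in 459 of 1430 cells. Uhrf1 gave 288 UMIs in 191 cells, Dnmt3a 260 in 219 and Dnmt3b 259 in 203. The Tet genes were thinly counted, with 123 UMIs for Tet3, 88 for Tet1 and 21 for Tet2, so differences in them were detectable only if large. UMI totals differ with how well each transcript end is captured and were not compared between genes as levels. Across whole plates, Dnmt3b was at 123 ± 10.7 CPM and Dnmt3a at 123 ± 13.7 CPM (SD, n = 4 plates), with little spread, whereas Tet1 ran from 10.3 CPM in plate 2 to 67.4 CPM in plate 5. In the wells without a record, Dnmt1 had 0 UMIs in 106 wells, which allows a share of wells of up to 2.83% (counting error only), and Tet1 and Tet2 also had 0. Uhrf1 had 1 UMI in each of 5 of these wells (4.72% of wells, 199 CPM, at a median of 224 UMIs per well), Dnmt3b had 3, Dnmt3a 2 and Tet3 1.

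The maintenance genes rose with CFP. Bright and dim stand for the top and bottom 20% of a plate's cells by CFP, close to how the bulk samples were sorted per the labels, and intermediate for the cells between them. In dim cells, Dnmt1 was at 211, 129, 183 and 282 CPM in plates 2, 3, 4 and 5. In bright cells it was at 796, 590, 530 and 720 CPM. Every bright value lay above every dim value, and intermediate cells (271 to 372 CPM) overlapped the upper end of dim and lay below all bright values. The edgeR quasi-likelihood test on UMIs summed per plate and fraction gave a log2 fold change of 1.69 ± 0.18 (SE; Benjamini-Hochberg adjusted p = 1.23e-15, bright above dim in 4 of 4 plates). Plates were treated as technical replicates, since nothing ties a plate to a mouse. The p above thus measures the spread between plates and genes and cannot be read as spread between mice. A stricter reading would take the table as 1 sample without a test.

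Uhrf1 had few UMIs in dim cells. Plates 2, 3, 4 and 5 gave 3, 2, 5 and 1 UMIs there, or 37.3, 23.5, 65.5 and 12.8 CPM, against 376, 199, 300 and 217 CPM in bright cells. The groups did not overlap, and Uhrf1 rose by a log2 fold change of 2.93 ± 0.35 (edgeR adjusted p = 1.21e-12). The share of dim cells with a Uhrf1 UMI, 3.50% at a median of 1060 UMIs, was below the 4.72% of the wells without a record, so the fold change of Uhrf1 rests on a dim group whose level was not above that of these wells. The share of bright cells with a Uhrf1 UMI was 33.9% at a median of 1814 UMIs.

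**Figure D1:**
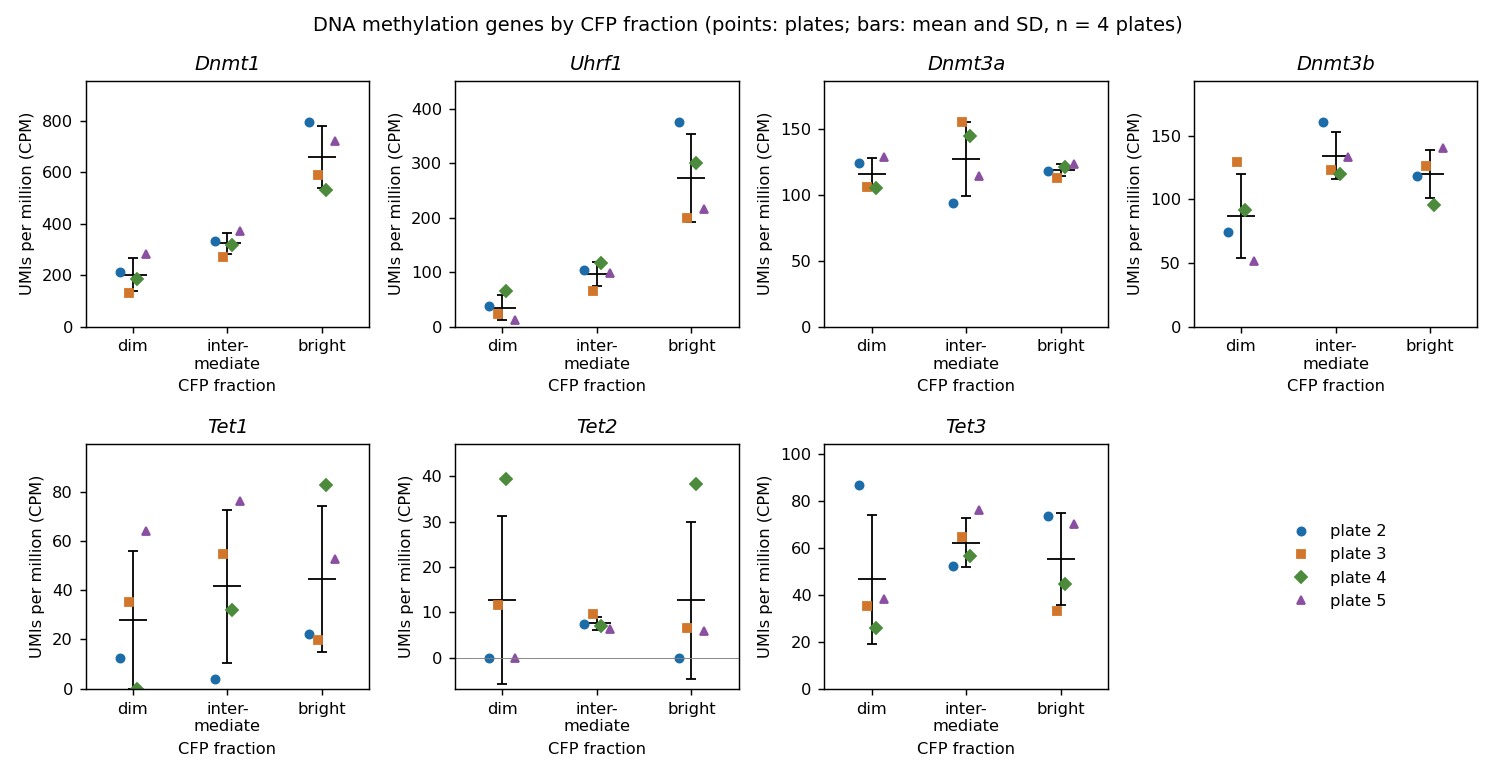
Level of each gene in CPM (y axis) in dim, intermediate and bright cells (x axis), with 1 point per sort plate and bars for the mean and SD over 4 plates; the y axes differ in range. Bright cells lie above dim cells in every plate for Dnmt1 (530 to 796 against 129 to 282 CPM) and Uhrf1 (199 to 376 against 12.8 to 65.5 CPM), and the points of the other 5 genes overlap between dim and bright.

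Of the 7 genes, 2 were called between bright and dim cells, 4 were tested and not called, and Tet2 did not pass the filter on low counts. The background was 421 of 4652 genes called (9.05%), with 5.61% higher and 3.44% lower in bright cells. Dnmt3a, the de novo enzyme, was at 124, 106, 105 and 128 CPM in dim cells and 118, 113, 121 and 123 CPM in bright cells. These ranges overlap fully, the log2 fold change was 0.02 ± 0.31 (edgeR adjusted p = 0.984), and its 95% interval ran from -0.59 to 0.63. For Dnmt3b, dim plates gave 74.6, 129, 91.7 and 51.3 CPM and bright plates 118, 126, 95.7 and 140 CPM. The groups overlap, and its log2 fold change of 0.45 ± 0.33 (edgeR adjusted p = 0.487) had an interval from -0.21 to 1.10. A doubling of Dnmt3b is thus inside its interval and a doubling of Dnmt3a is not.

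Tet1, Tet2 and Tet3 were too sparse for a firm statement. Tet1 was at 27.9 ± 28.2 CPM in dim and 44.4 ± 29.7 CPM in bright cells (SD, n = 4 plates), with plate 4 going from 0 to 82.9 CPM and plate 3 from 35.2 to 19.9 CPM. Its log2 fold change was 0.64 ± 0.63 (edgeR adjusted p = 0.623), with an interval of -0.60 to 1.87. Tet3 gave 0.21 ± 0.49 (edgeR adjusted p = 0.860), with an interval of -0.74 to 1.17. Tet2, the Tet gene most tied to clonal blood expansion, had 4 UMIs in dim cells, of which 3 were in plate 4, and 8 in bright cells, of which 6 were in plate 4.

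Bright cells also held more UMIs in all, a median of 1814 per cell against 1060 in dim cells, so per-cell numbers move with RNA content. Counted per 100 cells without normalization, Dnmt1 went from 22.4 UMIs in dim to 141 in bright cells and Uhrf1 from 3.85 to 57.7, while Dnmt3a went from 12.9 to 25.5 and Dnmt3b from 9.79 to 25.9. After thinning each cell of at least 1000 UMIs to 1000 UMIs (159 of 286 dim and 255 of 286 bright cells), the share of cells with a Dnmt1 UMI was 15.1% in dim and 46.7% in bright cells, against 18.9% and 59.4% unthinned. For Uhrf1 the thinned shares were 3.14% and 21.6%. Dnmt3a had 7.55% and 12.2%, and Dnmt3b 8.81% and 8.63%, with exact 95% binomial intervals that overlap for both genes (3.96% to 12.8% against 8.41% to 16.8% for Dnmt3a, counting error only). The wide gap between fractions at equal depth was thus measured in the maintenance pair.

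Between intermediate and bright cells, Dnmt1 rose by 1.00 ± 0.13 and Uhrf1 by 1.46 ± 0.20 on the log2 scale (edgeR adjusted p = 1.22e-11 and 5.69e-10), 2 of the 7 genes against a background of 408 of 4652 (8.77%, with 5.42% higher). The de novo and Tet genes had log2 fold changes between -0.21 and 0.10, and none was called. Between dim and intermediate cells, Dnmt1 differed by 0.69 ± 0.19, Uhrf1 by 1.47 ± 0.41 and Dnmt3b by 0.61 ± 0.30. Their 95% intervals, not adjusted for the number of genes, were 0.32 to 1.07, 0.66 to 2.27 and 0.02 to 1.21. None of these genes was called (edgeR adjusted p = 0.297, 0.297 and 0.669), in a comparison that called 1 of 4652 genes (0.0215%). Without the filter on low counts Dnmt1 was called in this step (0.83, edgeR adjusted p = 0.0179).

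**Figure D2:**
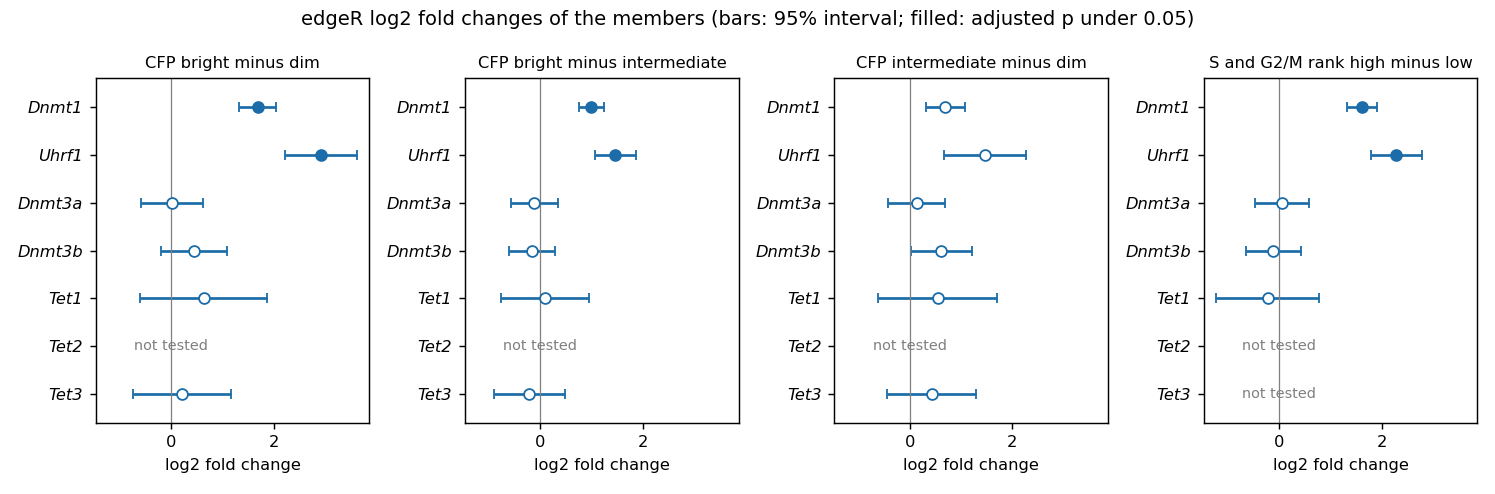
edgeR log2 fold changes (x axis) of the 7 genes (y axis) in 4 comparisons, with 95% intervals; filled points passed an adjusted p of 0.05. The filled points are Dnmt1 and Uhrf1 in 3 of the 4 panels, and the intervals of Dnmt3a and Tet1 cross 0 in all of them.

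Splitting each plate into 5 equal bins of CFP rank shows the shape of the relation, as a description. Dnmt1 had plate means of 202, 251, 301, 400 and 657 CPM from the lowest to the highest bin, higher in each bin than in the one before. The lower 3 bins overlap between plates, and the top bin (522 to 797 CPM) lies above all values of the others (129 to 504 CPM). Uhrf1 had means of 34.8, 84.8, 65.6, 127 and 274 CPM, and its 4 lower bins overlap, as do the top bin (199 to 373 CPM) and the bin below it (60.9 to 199 CPM). Dnmt3a stayed between 108 and 137 CPM, with no order along CFP. Dnmt3b had means of 86.8, 107, 137, 150 and 121 CPM, rising over the 4 lower bins and falling in the top bin. Its bins overlap between plates, except that the lowest bin (51.9 to 129 CPM) lies just below the middle bin (131 to 141 CPM).

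The sizes of the CFP differences were compared between genes within plates, on log2(CPM + 10). The difference was larger for Uhrf1 than for Dnmt1 in 4 of 4 plates, by 1.06 on average (SD 0.68). It was larger for Dnmt1 than for Dnmt3a in 4 of 4 plates, by 1.66 (SD 0.38). Each comparison had an exact two-sided sign-flip permutation p of 0.125, the smallest that 4 plates can give, so neither can reach 0.05, and the 2 comparisons were not adjusted further. With the upper and lower 33% as fractions, Uhrf1 exceeded Dnmt1 in 3 of 4 plates, by 0.79.

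Dnmt1 and Uhrf1 were also higher in cells rich in S and G2/M transcripts. The 1025 cells of 1000 UMIs or more, each thinned to 1000, were ranked by their UMIs from 94 S phase and G2/M genes, which do not include the methylation genes. In each plate the 20% highest (205 cells in all) were compared with the 50% lowest (512 cells). The S phase and G2/M genes used for the ranking were left out of this comparison. High cells had at least 10 to 15 of these UMIs, depending on the plate, and 95 cells were within 1 UMI of that bound, so high and low name ranges along a score. Dnmt1 was at 248, 185, 226 and 264 CPM in the low set and 882, 655, 514 and 818 CPM in the high set. Uhrf1 was at 57.7, 23.1, 121 and 37.0 CPM against 463, 223, 215 and 261 CPM. The sets did not overlap for either gene. Dnmt1 rose by 1.61 ± 0.15 and Uhrf1 by 2.29 ± 0.25 on the log2 scale (edgeR adjusted p = 4.50e-25 and 4.28e-17), 2 of the 7 genes against a background of 698 of 4416 genes (15.8%, with 8.49% higher). Most of the precision of these p-values comes from the spread over all genes, since the plates leave 3 residual degrees of freedom.

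Dnmt3a (0.05 ± 0.27), Dnmt3b (-0.11 ± 0.27) and Tet1 (-0.22 ± 0.51) were not called between the high and low sets (edgeR adjusted p = 0.936, 0.850 and 0.836), with intervals of -0.48 to 0.58, -0.65 to 0.43 and -1.23 to 0.78. Dnmt3a was at 114 ± 15.3 CPM in low and 119 ± 20.2 CPM in high cells, and Dnmt3b at 117 ± 15.7 and 108 ± 22.5 CPM (SD, n = 4 plates). Tet2 and Tet3 did not pass the filter on low counts in this fit. Tet3 was at 64.5 ± 18.8 CPM in low and 45.0 ± 13.8 CPM in high cells.

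Marker lists of other cells moved in the same contrast. Of the 2 erythroid markers tested, both fell from low to high cells (Hba-a2 fell by 2.18 and Hbb-b1 by 1.55 on the log2 scale), and summed over the list the plates ran from 283 to 4036 CPM in low and from 205 to 2165 CPM in high cells. Of 4 megakaryocyte markers tested, 3 rose (Pf4 from 80.7 to 241 CPM, Gp1bb, on a row shared with Sept5, by 1.54 and Itga2b by 1.06 on the log2 scale), with list sums of 225 to 375 CPM against 424 to 735 CPM. Of 9 HSC markers tested, 4 fell (Procr, Hlf, Mecom and Mllt3), with sums of 1784 to 1976 CPM against 878 to 1170 CPM. Between intermediate and bright cells, Hba-a2 fell by 0.99 and Hbb-b1 by 0.64, Pf4 rose by 1.24, and 4 of 9 HSC markers fell. The erythroid and megakaryocyte markers and Procr are named after their values were seen, and the part of these cells in the results for Dnmt1 and Uhrf1 was not tested.

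S phase and G2/M genes were then taken apart, as a description in thinned cells, with the 20% highest of each list per plate called high. Cells high in neither list (694) had 27.4 Dnmt1 UMIs per 100 cells. Cells high in G2/M genes alone (126) had 42.1, and those high in S genes alone (126) had 80.2. Cells high in both (79) had 79.7, so Dnmt1 was near its top value wherever S phase genes were high. Uhrf1 had 6.05 UMIs per 100 cells in neither, 11.1 with G2/M alone, 30.2 with S alone and 53.2 with both. The plates overlap between S alone (21.4 to 43.3) and both (25.0 to 72.2). Dnmt3a had 11.4 in neither, 12.7 with G2/M alone, 19.8 with S alone and 10.1 with both. Its plates with S alone (15.6 to 23.3) lay above those in neither (9.63 to 12.5) and overlapped those with both (0 to 15.8). Dnmt3b lay between 8.86 and 15.1 UMIs per 100 cells in the 4 classes.

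**Figure D3:**
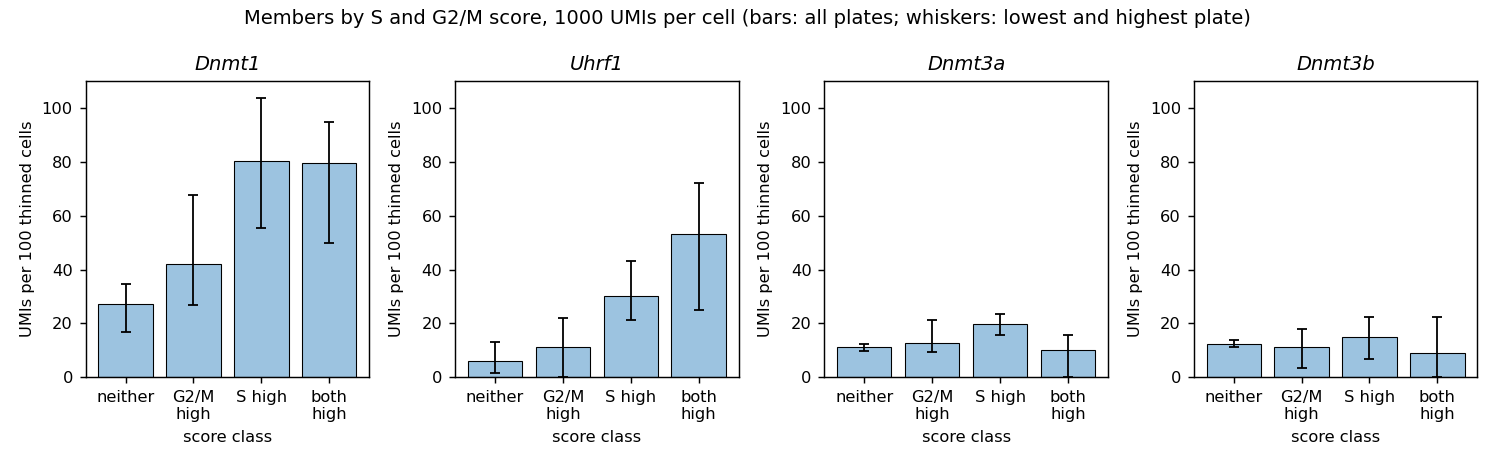
UMIs per 100 cells thinned to 1000 UMIs (y axis) in cells high in neither, G2/M alone, S alone or both score lists (x axis), with bars over all plates and whiskers from the lowest to the highest plate. Dnmt1 stands at 80.2 and 79.7 in the classes high in S genes against 27.4 in neither, and Dnmt3b lies between 8.86 and 15.1 in all 4.

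CFP and cycle rank move together: in thinned cells, S and G2/M genes made up 0.536% of UMIs in dim and 1.31% in bright cells. The CFP comparison was therefore repeated with the top 20% of cells by this rank left out and with fractions taken anew in the remaining cells of at least 1000 UMIs. These genes still made up 0.477% of UMIs in dim and 0.676% in bright cells there. Taken apart, S phase genes were at 0.285% in dim and 0.476% in bright cells, and G2/M genes at 0.191% and 0.201%. Dnmt1 was at 240, 140, 97.6 and 277 CPM in dim and 590, 332, 564 and 623 CPM in bright cells, without overlap, and rose by 1.44 ± 0.24 (edgeR adjusted p = 5.82e-06). Uhrf1 had 8 UMIs in dim cells and 64 in bright cells and rose by 2.44 ± 0.50 (edgeR adjusted p = 5.68e-04). Of these bright UMIs, 33 came from plate 4. Both genes were among the 30 of 2707 called in this comparison (1.11%, with 0.739% higher), with Dnmt3a at 0.43 ± 0.39 and Dnmt3b at 0.25 ± 0.41 not called.

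The index record also gives each cell a whole number from 1 to 10, called map, whose meaning is not stated. It may have been made from the expression of the same cells, so levels across map groups are described and not tested. Group 1 held 10 cells and was left out. Dnmt1 had means over plates of 161, 223, 213 and 247 CPM in groups 2 to 5, 184 and 343 CPM in groups 6 and 7, then 477 CPM in group 8, 782 CPM in group 9 and 356 CPM in group 10. Group 9 plates (657 to 867 CPM) overlap only group 8 (279 to 734 CPM). Uhrf1 was at 12.2, 14.0, 39.2 and 78.5 CPM in groups 2 to 5, 84.5 and 58.5 CPM in groups 6 and 7, and 167, 345 and 98.4 CPM in groups 8, 9 and 10. Its group 9 plates (253 to 424 CPM) overlap group 6, which has 33 cells and 3 Uhrf1 UMIs.

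Both maintenance genes thus had their highest mean in group 9 and a lower one in group 10. In thinned cells, S phase genes made up 0.695% of UMIs in group 8, 0.812% in group 9 and 0.233% in group 10, while G2/M genes made up 0.366%, 0.601% and 1.92%. Group 9 cells also held the most UMIs, a median of 2341 per cell. Dnmt3a, by contrast, had its highest mean in group 10 (165 ± 91.4 CPM) and its lowest in group 2 (52.2 ± 61.9 CPM; SD, n = 4 plates), with overlap throughout except that its group 4 plates (141 to 159 CPM) lie above those of groups 2, 5 and 8 (0 to 132 CPM). Dnmt3b had means between 72.9 CPM in group 3 and 160 CPM in group 5. Its groups overlap except that group 3 plates (0 to 116 CPM) lie below those of group 5 (118 to 250 CPM) and group 9 (126 to 194 CPM). Tet2 had 6 of its 21 UMIs in the 42 cells of group 10, and 5 of the 6 came from plate 4.

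**Figure D4:**
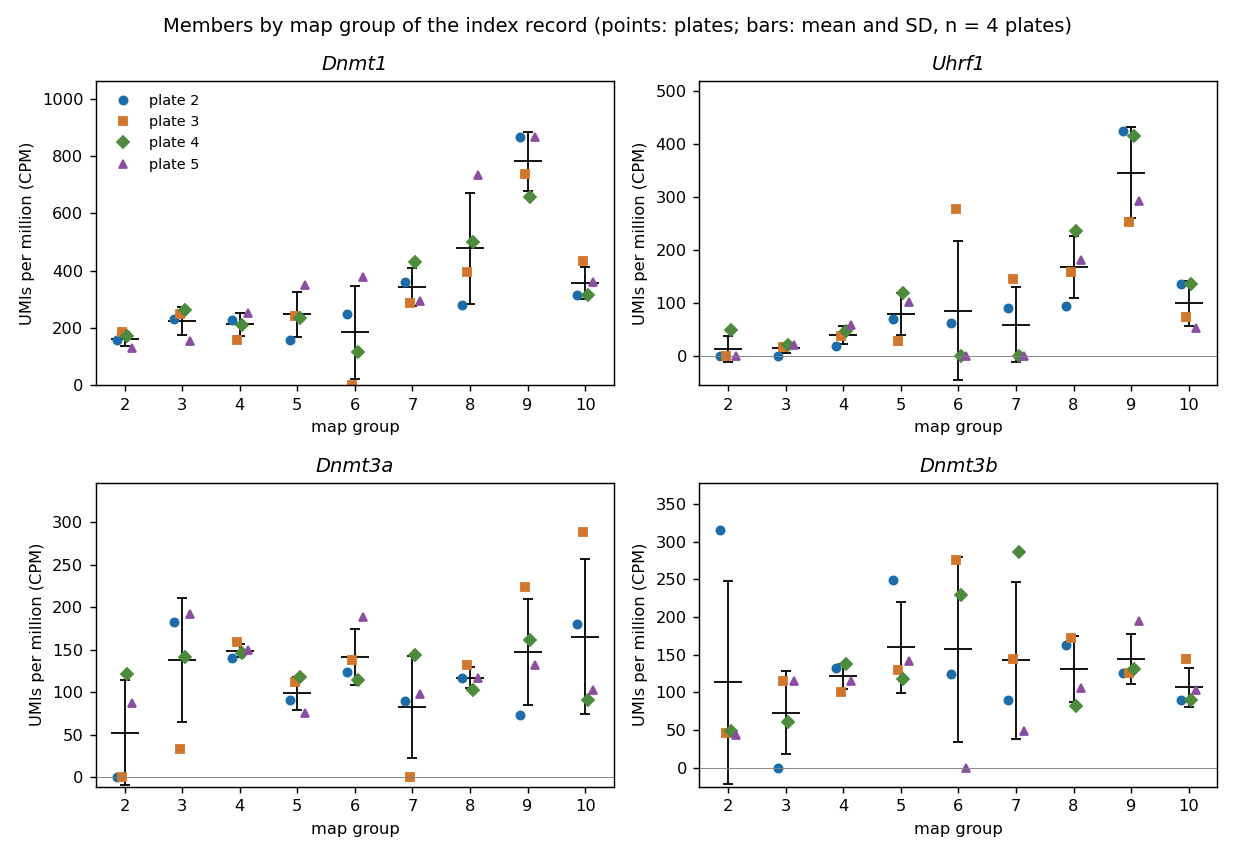
Level of Dnmt1, Uhrf1, Dnmt3a and Dnmt3b in CPM (y axis) by map group (x axis), with 1 point per plate and bars for the mean and SD over 4 plates; bars that reach below 0 mark groups with very few UMIs. Dnmt1 and Uhrf1 have their highest means in group 9 (782 and 345 CPM), and the Dnmt3a and Dnmt3b points overlap across most groups.

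The CFP comparison was also run within map groups, as an addition made after the data were seen. CFP fractions were first taken anew inside groups 2 to 7 (988 cells, mean S and G2/M share 0.506% of thinned UMIs) and inside groups 8 to 10 (432 cells, 1.32%). In groups 2 to 7, Dnmt1 was at 225, 144, 173 and 198 CPM in dim and 347, 245, 292 and 366 CPM in bright cells, which do not overlap, but its log2 fold change of 0.77 ± 0.28 was not called (edgeR adjusted p = 0.428). That comparison called 0 of 2399 genes (0%), with 161 at an unadjusted p under 0.05. Uhrf1 had 5 UMIs in dim and 23 in bright cells there and did not pass the filter. In groups 8 to 10, Dnmt1 rose by 0.93 ± 0.24 (edgeR adjusted p = 0.0169), 1 of the 4 methylation genes tested against 50 of 2057 genes (2.43%, with 1.75% higher). Uhrf1 differed by 0.77 ± 0.37 (edgeR adjusted p = 0.396), with 94.8 to 153 CPM in dim plates 2 and 5, 39.8 in plate 3 and 397 in plate 4.

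Whether the CFP difference itself differed between the 2 sets of groups was tested as an interaction, with fractions of the whole plate. In that fit Dnmt1 was higher in bright than in dim cells by 0.88 ± 0.31 in groups 2 to 7 (edgeR adjusted p = 0.395, not called) and rose by 1.96 ± 0.44 in groups 8 to 10 (edgeR adjusted p = 0.00197). Uhrf1 differed by 2.16 ± 0.69 and 1.44 ± 0.62 (edgeR adjusted p = 0.301 and 0.307), neither called. The log2 fold change in groups 8 to 10 minus that in groups 2 to 7 was 1.08 ± 0.59 for Dnmt1 and -0.72 ± 0.95 for Uhrf1 (edgeR adjusted p = 0.689 and 0.904), and neither passed. Only 27 dim cells lay in groups 8 to 10, against 191 bright cells, so this test had little depth.

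The balance within the family shifted with these sets. Dnmt1 and Uhrf1 made up 44.6% of the 7 genes' UMIs in dim cells (95% exact binomial interval 37.0% to 52.5%, counting error only), 52.7% in intermediate and 72.4% in bright cells (69.1% to 75.5%). Plates ran from 32.5% to 51.1% in dim and from 68.4% to 77.9% in bright cells, without overlap. The share was 44.4% in map groups 2 to 7 and 71.5% in groups 8 to 10, with plates of 42.4% to 46.0% against 64.3% to 77.3%. Group 9 had the highest share (76.1%), group 4 the lowest (36.8%), and group 10, high in G2/M genes, had 47.9%. The pair was at 450 CPM in group 10, above each of groups 2 to 7 (173 to 413 CPM). Tet genes were at 232 CPM in group 10 (18 of its 73 UMIs), against 26.7 to 152 CPM in the other groups. Most of these Tet1 (4 of 5) and Tet2 (5 of 6) UMIs came from plate 4. In the low and high S and G2/M sets it was 44.7% and 75.4%. Summed over the pair, the maintenance genes were at 234 CPM in dim, 419 CPM in intermediate and 925 CPM in bright cells, and the de novo genes at 203, 261 and 239 CPM.

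**Figure D5:**
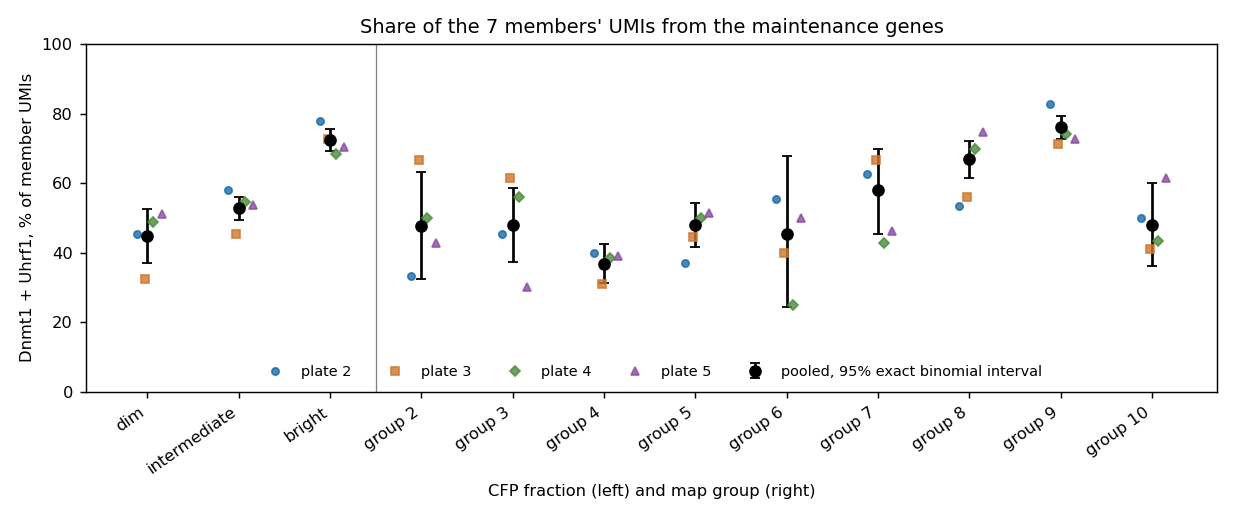
Percent of the 7 genes' UMIs that came from Dnmt1 or Uhrf1 (y axis) by CFP fraction and map group (x axis), with black points for all plates pooled with exact 95% binomial intervals and coloured points per plate. The share was 44.6% in dim and 72.4% in bright cells, and 76.1% in group 9 against 47.9% in group 10.

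In single cells, Dnmt1 and Uhrf1 UMIs were seen together more often than their separate frequencies give, as a description. Of the 109 thinned cells with a Uhrf1 UMI, 53.2% also had a Dnmt1 UMI, against 27.1% of the other cells. Both were seen in 58 cells, 1.74 times the 33.3 from the product of their frequencies, and most of the 306 cells with a Dnmt1 UMI had none of Uhrf1. Dnmt1 with Dnmt3a (31 cells against 34.6), Dnmt1 with Dnmt3b (28 against 33.4) and Uhrf1 with Dnmt3a (12 against 12.3) lay near those products. Dnmt3a with Dnmt3b was seen in 15 cells against 12.8. These are descriptions of sparse counts and carry no test.

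For each of the 4 genes with at least 200 UMIs, the 5 genes most alike across map groups 2 to 10 were named by Pearson correlation of log2(CPM + 10), among 2310 genes with as many UMIs. These correlations run over 9 groups of the same libraries that differ in depth and cycle state, and are descriptions only. For Dnmt1 they were Hnrpdl (0.97), the replication helicase subunit Mcm3 (0.96), the histone chaperone Nasp (0.93), the splicing protein gene Snrpb (0.93) and Pmf1 (0.93). Uhrf1 stood at 0.89 with Dnmt1. For Uhrf1 they were Ybx1 (0.97), Mrpl18 (0.94), Thoc4 (0.94), Anp32b (0.94) and Nudt1 (0.93). For Dnmt3a they were Hcfc1 (0.90), Tsn (0.88), Zc3h15 (0.86), Arl6ip4 (0.86) and Cox6c (0.85), and for Dnmt3b Pebp1 (0.98), 1110054O05Rik (0.95), Thrap3 (0.93), Txnl1 (0.91) and Tpr (0.87). Dnmt3a and Dnmt3b correlated at 0.28 and 0.36 with Dnmt1, at 0.36 and 0.67 with Uhrf1 and at 0.44 with each other.

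Partners of these enzymes were taken as lists by role. Of 7 methylation cofactors, 4 were tested between bright and dim cells, 2 rose and none fell (5.61% of all genes tested were called higher), and the median log2 fold change was 0.67 against -0.03 over all genes. Hells, the chromatin remodeller that opens DNA to methylation, rose from 47.1 ± 12.5 to 143 ± 46.4 CPM (1.56 ± 0.39; edgeR adjusted p = 0.00189). Cdca7, its partner, rose from 129 ± 24.4 to 266 ± 19.7 CPM (1.03 ± 0.25; edgeR adjusted p = 0.00112). Both are on the S phase list as well. The ubiquitin protease gene Usp7 (0.30 ± 0.26) and the Uhrf1 relative Uhrf2 (-0.29 ± 0.55) were not called.

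Against the same 5.61% of genes called higher and 9.05% called in all, of 16 partners of demethylation 5 were tested and 1 rose, Parp1, a DNA break sensor (0.83 ± 0.19; 237 ± 44.5 to 429 ± 88.3 CPM; edgeR adjusted p = 4.72e-04), with a list median of 0.19. Of 7 methyl-CpG readers, 5 were tested and none was called, with a median of -0.03. Of 14 genes of the methyl donor and folate cycle, 8 were tested and 3 rose, with a median of 0.93. Among them were the mitochondrial folate enzyme Mthfd2 (3.15 ± 0.70) and thymidylate synthase Tyms (2.69 ± 0.39; edgeR adjusted p = 3.54e-04 and 5.51e-09), which serve purine and thymidine supply. Tyms is on the S phase list as well. Mat2a, which makes the methyl donor S-adenosylmethionine, was not called (0.44 ± 0.18; edgeR adjusted p = 0.114).

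Between the high and low S and G2/M sets, where 8.49% of all genes tested were called higher and 15.8% in all, 1 of 5 methyl-CpG readers rose (Mbd2, 0.85 ± 0.30), 4 of 7 methyl donor and folate genes rose (among them Mthfd2, Shmt1 and Mat2a, the last by 0.47 ± 0.15), and none of the 4 demethylation partners or the 1 cofactor tested was called. Hells, Cdca7 and Tyms are among the genes used for the ranking, which were left out of this comparison. Mbd2, Shmt1 and Mat2a are named after their values were seen. The HSC marker list ran the other way in bright against dim cells: 3 of 9 tested fell (lower background 3.44%) and none rose, namely the HSC transcription regulators Hlf (fell by 0.97), Mecom (fell by 1.18) and Mllt3 (fell by 0.90 on the log2 scale). Summed over the list, HSC markers were at 1611 to 1995 CPM in dim and 1040 to 1415 CPM in bright plates, beside the opposite difference in Dnmt1 and Uhrf1.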

How the data were processed

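Per the labels' protocols, index-sorted single cells were captured with barcoded poly(T) primers, so UMIs come from transcript ends. The authors deposited UMI counts per gene and well, which are whole numbers without normalization. The deposited sort record holds CFP on a log10 scale, as its values show, and forward scatter as a linear intensity. Its map number has no stated meaning. The submitters' processing notes name Bismark 0.19.0, bcl2fastq 2.15.0.4, STAR, cutadapt, featureCounts, DESeq2, mm9 and mm10 for the series with no role. No source used here says how reads became UMI counts.

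The members and gene lists were chosen with earlier results of these data known. Kept cells had a sort record and at least 500 UMIs (1430 of 1536 wells). No cell identifier occurred more than once, and no doublet caller was run on wells filled by a single-cell sort. UMIs were summed per plate and set, since no map from wells to the 8 labelled batches was used. They were tested with edgeR 4.0.16 in R 4.3.3: low genes removed by filterByExpr, TMM scaling, a quasi-likelihood fit that has plate as a term, and Benjamini-Hochberg adjustment over all genes at 0.05. The script was tested on simulated data. Sums held 76354 to 85201 UMIs per plate in dim, 267573 to 314856 in intermediate and 135701 to 170837 in bright cells. Beside the members, the genes named were list genes called between bright and dim cells and, per member of at least 200 UMIs, the 5 most alike across map groups. Alternatives were DESeq2 1.42.0, no filter, no plate term, other fractions, thinning, correction of CFP for forward scatter, and leaving out plates or cycling cells. The comparisons within map groups were added after the data were seen. The values of 1 list gene are not reported here.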

Additional observations from a re-analysis of the deposited data

Results flagged for a closer look

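The UMI counts of 57 sets of 4 plates (a gene in a fraction or map group) were searched for a plate that stood apart from the others, and 3 did. The rate of about 1 in 20 sets by chance does not hold for sparse counts. There, a set at 0 in all plates but 1 always stands apart. Not every gene and map group was searched. Tet1 in map group 3 was left out, at 0 in plates 2, 3 and 4 and at 57.8 CPM in plate 5, from 3 UMIs. In map group 2, Uhrf1 was at 48.6 CPM in plate 4 and at 0 in the other plates, from 2 UMIs. In the same group, Dnmt3b was at 315 CPM in plate 2 against 43.7 to 48.6 CPM in the others, from 4 UMIs. In map group 9, Dnmt3b was at 194 CPM in plate 5, from 22 UMIs, against 126 to 131 CPM in the others. In the 106 wells without a sort record, which enter no comparison, Uhrf1 had 5 UMIs and Dnmt3b had 3, in a total of 25068 UMIs. The 7 genes together stood at 439 CPM in these wells and at 894 CPM in the recorded cells.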

How the results depend on the processing

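Dnmt1 kept its direction and its call between bright and dim cells in 14 of 15 alternatives (log2 fold change 0.93 to 2.06), and Uhrf1 in 13 of the 14 that tested it (2.15 to 3.36). Between the high and low S and G2/M sets both were called in all 9. The exceptions for CFP were Dnmt1 within map groups 2 to 7 (0.77) and Uhrf1 within groups 8 to 10 (0.77). Bright against intermediate, the calls ended within map groups 2 to 7 for Dnmt1 (0.53) and within groups 8 to 10 for Dnmt1 (0.25) and Uhrf1 (0.22). No member of the de novo or Tet classes was called under any alternative. The number of genes called between bright and dim cells was 211 with DESeq2, 125 in thinned cells, 30 without the top 20% of cells by S and G2/M genes, 0 within map groups 2 to 7, 50 within groups 8 to 10 and 257 to 368 with a plate left out. Between bright and intermediate cells it was 158, 102, 16, 0 and 32 in the same order, 184 with 33% fractions and 237 to 331 with a plate left out. Between intermediate and dim cells it was 4 with 10% fractions, 2 with 33% fractions, 2 in thinned cells, 20 without a filter, 0 without the cycling cells, 0 and 21 within the map groups, and 1 to 3 with a plate left out. Between the high and low sets it was 218 with DESeq2, 288 in thinned cells and 414 to 557 with a plate left out. In the edgeR fits that called 0 genes, those at an unadjusted p under 0.05 numbered 161, 118 and 130 within map groups 2 to 7 (bright against dim, bright against intermediate, intermediate against dim), 136 without the cycling cells and 177 without the plate term (both intermediate against dim). Thinned cells and map groups hold fewer UMIs and tested fewer genes, and the cause of the other differences was not tested.

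Without the replicate block, that is, without the plate term that pairs the fractions, the calls numbered 125 between bright and dim, 85 between bright and intermediate, 0 between intermediate and dim and 238 between high and low cells, and both maintenance genes kept their calls. The numbers that the labels share across groups belong to the bulk and bisulphite samples, which were not analysed here, so no other pairing was made.

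Fold changes that were not called changed sign as follows. Dnmt3a, bright against dim, was at -0.10 with 33% fractions, at -0.47 and -0.11 within map groups 2 to 7 and 8 to 10, and from -0.0212 to 0.0803 with a plate left out, below 0 without plate 3 or 4. Against intermediate cells it was at 0.14 without the cycling cells and from -0.22 to 0.0102 with a plate left out, above 0 without plate 3. Intermediate against dim it ran from -0.0193 to 0.30, below 0 without plate 3. Dnmt3b, bright against intermediate, was at 0.10 with 10% fractions and at 0.17 and 0.0717 within the map groups. Tet1 ran from -0.0745 to 0.52 against intermediate cells with a plate left out, below 0 without plate 2, and was at -0.25 intermediate against dim with 33% fractions. Between high and low sets Dnmt3a ran from -0.17 to 0.16, below 0 without plate 3. Dnmt3b was at 0.21 with the upper and lower 50% and ran from -0.22 to 0.0197 with a plate left out, above 0 without plate 4.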
